A study of Homo sapiens with 12 samples.

Results

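UHMK1, PHLDA2, ABAT, MYO5B, SELENBP1 and C4orf49 are 6 genes, of 23398 entries in the deposited table, that were picked because their RNA was strongly lower after siGlut1 and because they lie outside the metabolic, stress and endothelial pathways examined in earlier work on these data. They were chosen by the siGlut1 differences themselves, so these differences are given as a description and without a test. The samples were human brain microvascular endothelial cells (HBMEC), commercially supplied cells of the vessel wall that forms the blood-brain barrier. They were transfected for 48 hours with siGlut1, directed at SLC2A1, or with a non-silencing siRNA. The medium held either control or high glucose, at concentrations that the labels do not state. The 4 groups were non-silencing siRNA in control glucose (n = 3), non-silencing siRNA in high glucose (n = 2), siGlut1 in control glucose (n = 3) and siGlut1 in high glucose (n = 3).

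The third column labelled as non-silencing siRNA in high glucose, its replicate 2, was left out. It equals the mean of its 2 companions in 15915 of the 15915 entries where these differ. All groups shared the cell type and the transfection, and untransfected cells were not analysed here. A single siRNA reagent against SLC2A1 is named, so an effect of losing SLC2A1 and a direct effect of the reagent on other transcripts cannot be told apart. Nothing in the labels says whether replicates were separate cultures, and the spread between them may be technical. In bulk RNA, fewer cells of a type and less RNA per cell cannot be told apart.

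GLUT1, the product of SLC2A1, is the main glucose carrier of the blood-brain barrier, and moves glucose down its gradient from blood into brain. The 6 genes belong to no common pathway. UHMK1 encodes a nuclear kinase with an RNA-recognition-like domain that phosphorylates splicing factors and the cell cycle inhibitor CDKN1B. PHLDA2 encodes a small lipid-binding protein from an imprinted cluster, best known for restraining growth of the placenta. ABAT encodes GABA transaminase, the mitochondrial enzyme that breaks down the transmitter GABA. MYO5B encodes a class V myosin, a motor that carries recycling endosomes along actin. SELENBP1 encodes a selenium-binding enzyme that oxidises methanethiol. C4orf49, now called MGARP, encodes a mitochondrial protein linked to mitochondrial transport and known to be induced in hypoxia.

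Promoters are shown because they let the 6 genes and SLC2A1 be compared at the sequence level. RefSeq promoter sequences (build GRCh38.p14) matched 4 of the 6 genes and SLC2A1. The 250 bases before the first listed start site follow, 5′ to 3′ on the gene's strand, with 2 motifs in capitals, read on either strand. These are ACGTG, the core of the hypoxia response element, and the GC box, GGGCGG.
UHMK1 (chr1:162497555-162497804, plus strand): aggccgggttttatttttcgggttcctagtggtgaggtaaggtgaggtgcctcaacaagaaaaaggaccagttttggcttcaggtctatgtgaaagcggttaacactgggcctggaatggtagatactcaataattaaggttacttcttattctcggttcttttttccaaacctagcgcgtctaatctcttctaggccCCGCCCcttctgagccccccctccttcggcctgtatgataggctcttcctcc
ABAT (chr16:8674367-8674616, plus strand): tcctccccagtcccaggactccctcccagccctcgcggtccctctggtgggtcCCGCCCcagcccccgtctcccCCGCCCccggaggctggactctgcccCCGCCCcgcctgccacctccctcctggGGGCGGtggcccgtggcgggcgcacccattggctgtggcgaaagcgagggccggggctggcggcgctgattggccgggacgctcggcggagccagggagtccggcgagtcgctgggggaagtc
MYO5B (chr18:50195148-50195397, minus strand): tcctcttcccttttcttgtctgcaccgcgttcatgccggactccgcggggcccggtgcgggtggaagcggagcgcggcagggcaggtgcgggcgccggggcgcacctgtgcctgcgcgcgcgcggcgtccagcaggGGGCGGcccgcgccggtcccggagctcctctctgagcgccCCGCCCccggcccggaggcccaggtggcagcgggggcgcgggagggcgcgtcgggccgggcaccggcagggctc
C4orf49 (chr4:139280226-139280475, minus strand): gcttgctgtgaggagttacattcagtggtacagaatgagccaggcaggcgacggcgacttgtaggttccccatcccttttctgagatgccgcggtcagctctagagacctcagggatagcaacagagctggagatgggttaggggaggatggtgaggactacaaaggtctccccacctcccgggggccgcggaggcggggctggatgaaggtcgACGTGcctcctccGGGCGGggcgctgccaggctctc
SLC2A1 (chr1:42958869-42959118, minus strand): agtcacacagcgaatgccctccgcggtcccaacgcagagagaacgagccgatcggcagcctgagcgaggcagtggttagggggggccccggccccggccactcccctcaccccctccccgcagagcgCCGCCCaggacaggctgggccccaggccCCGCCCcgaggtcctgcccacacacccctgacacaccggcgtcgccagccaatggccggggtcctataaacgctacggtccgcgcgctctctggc

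All 5 windows hold a GC box, with 1 in UHMK1, 4 in ABAT, 2 in MYO5B, 1 in C4orf49 and 2 in SLC2A1. A GC box is in 42.6% of the 35116 RefSeq promoter windows of that length. The hypoxia core ACGTG is in the C4orf49 window alone among the 5, from 36 to 32 bases before the start (positions -36 to -32), and in 18.5% of all windows. ABAT has 4 listed starts, and the windows of its starts 2 and 3, which overlap each other, each hold 1 copy of the core. The box CCAAT was found 2 times in the ABAT window and 1 time in that of SLC2A1, against 32.0% of all windows with at least 1. The E-box CACGTG, which contains the hypoxia core, is in none of the 5 windows and in 6.34% of all. The antioxidant core TGACNNNGC is likewise in none of the 5 printed windows, though the windows of ABAT starts 2 and 3 each hold 1 copy of it, and it is in 10.9% of all. These matches describe the letters only.

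In hg19, the build of the files, UHMK1 lies on chromosome 1 (162466964 to 162499419), PHLDA2 on chromosome 11 (2949503 to 2950650) and ABAT on chromosome 16 (8768444 to 8878432). MYO5B is on chromosome 18 (47349156 to 47721451), SELENBP1 on chromosome 1 (151336780 to 151345164) and C4orf49 on chromosome 4 (140187317 to 140201492). SLC2A1 is on chromosome 1 (43391046 to 43424847). One value per whole gene is given for each library, with no split by transcript or exon. The MYO5B entry overlaps that of the microRNA gene MIR4320, and the SLC2A1 entry overlaps that of FLJ32224. No source used here says how reads shared by overlapping entries were counted. The other 5 genes overlap no other entry.

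Total counts of the 11 libraries ranged from 40135082 to 90536476, with a median of 49686182. Every count in these libraries is an even number, and no source used here says why. The lowest count was 84 for ABAT, 96 for MYO5B and 3668 for UHMK1. If each read pair had been counted as 2, these would be 42, 48 and 1834 pairs, with counting errors of 15.4%, 14.4% and 2.34%. All 10 endothelial markers tested, such as PECAM1 and CDH5, exceeded 1 CPM (counts of a gene scaled to 1 common library total), and their summed level ranged from 5480 to 8450 CPM. None of 5 astrocyte and none of 5 microglia and leukocyte markers reached 1 CPM. Of 5 neuron markers 1 did, SYT1 at 39.3 CPM, and of 4 oligodendrocyte markers 1 did, MBP at 8.94 CPM. Of 8 epithelial markers 4 did, all keratins, at a summed 337 to 422 CPM with non-silencing siRNA and 347 to 436 CPM with siGlut1 in control glucose, and 373 to 393 against 319 to 389 CPM in high glucose, while the defining marker CDH1 was at 0. Of 8 pericyte markers 4 exceeded 1 CPM, led by RGS5, while PDGFRB was at 0.166 CPM. The pericyte sum was 1840 to 2170 CPM with non-silencing siRNA and 1520 to 1620 CPM with siGlut1 in control glucose, and 2380 to 2440 against 1700 to 2040 CPM in high glucose. RGS5 made up nearly all of it, with means of 1970 against 1550 CPM in control and 2390 against 1870 CPM in high glucose. The other pericyte markers above 1 CPM did not share that fall. In control glucose ACTA2 had 20.6 against 22.4, NOTCH3 1.53 against 1.91 and ABCC9 2.25 against 2.23 CPM. In high glucose they had 20.3 against 20.8, 1.26 against 1.54 and 1.95 against 2.36 CPM. Under 1 CPM, PDGFRB, CSPG4 and KCNJ8 were lower with siGlut1 in both media, and DES was higher. PDGFRB had 0.249 against 0.0986 CPM in control and 0.203 against 0.126 CPM in high glucose. The sum of 5 fibroblast markers, of which COL1A2 alone exceeded 1 CPM, was 6.7 to 24.1 with non-silencing siRNA and 13.4 to 35.7 CPM with siGlut1 in control glucose, and 11 to 19.5 against 18.4 to 39.2 CPM in high glucose. The sum of 3 lymphatic endothelial markers, mostly LYVE1 and with PDPN at 0, was 125 to 183 against 174 to 206 CPM in control and 103 to 122 against 112 to 195 CPM in high glucose. The part of these markers in the results below was not tested.

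SLC2A1, the targeted gene, checks the labels. Its level in control glucose was 25.7, 23.7 and 22.2 CPM with non-silencing siRNA and 8.56, 9.05 and 6.26 CPM with siGlut1. In high glucose it was 21.2 and 20.7 CPM with non-silencing siRNA and 7.08, 7.19 and 6.38 CPM with siGlut1. The groups were far apart: every siGlut1 library was below every non-silencing library in both media. With siGlut1, 33.4% of the SLC2A1 level remained in control glucose and 32.8% in high glucose (log2 fold changes -1.58 ± 0.13 and -1.61 ± 0.14, SE; edgeR quasi-likelihood test, adjusted p = 0.000898 and 9e-04).

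**Figure D1:**
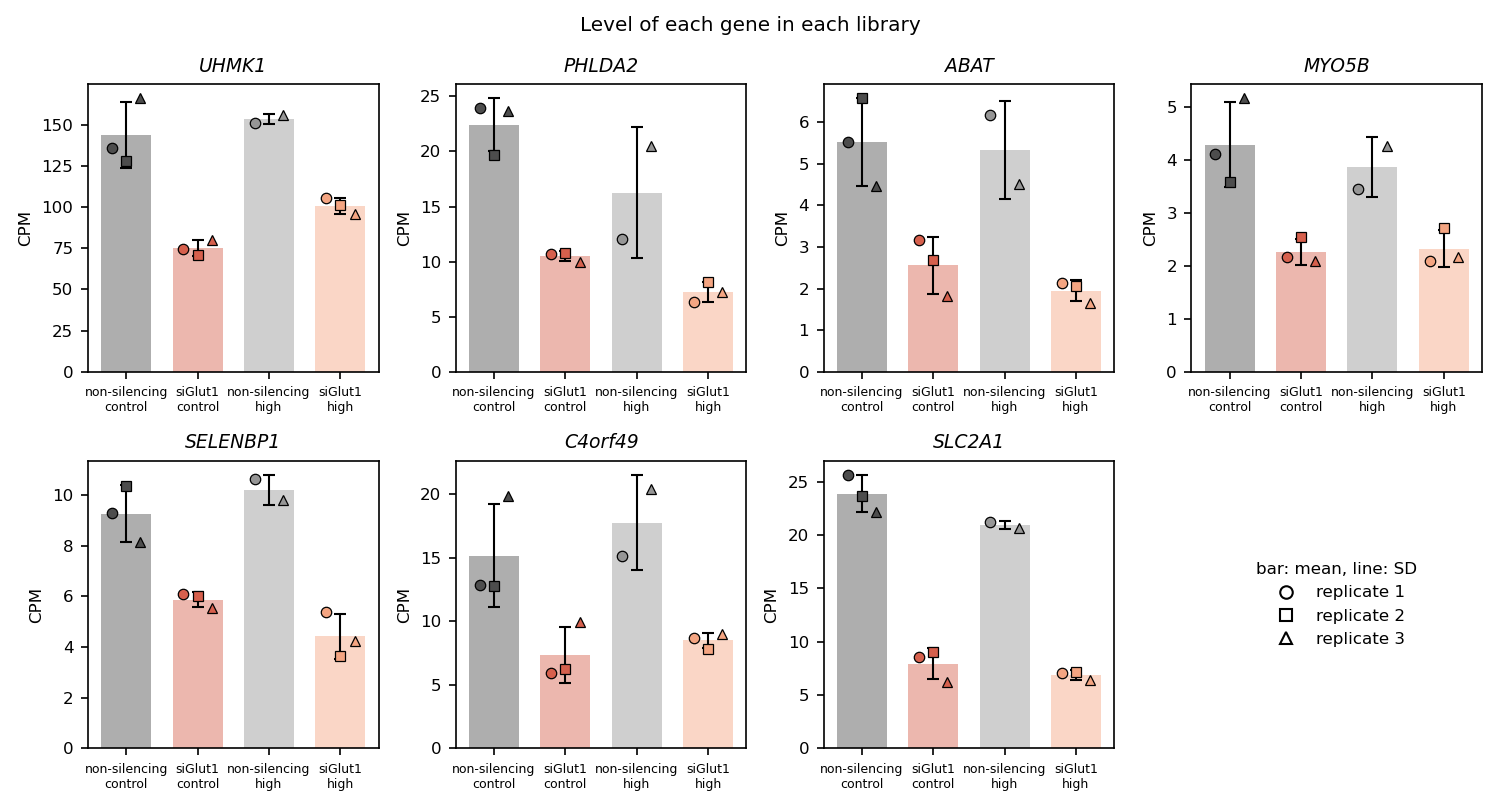
Level of each of the 6 genes and of SLC2A1 in CPM (vertical axis, linear, from 0) in the 4 groups. Points are single libraries, with symbols for the replicate number, bars are group means and lines are SD. In each panel all 6 siGlut1 libraries lie below all 5 non-silencing libraries.

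UHMK1 had the highest level of the 6 genes in CPM. With non-silencing siRNA in control glucose it stood at 136, 128 and 166 CPM, a mean of 143.5 ± 20.0 (SD, n = 3). With siGlut1 in the same medium it stood at 74.8, 70.8 and 80.0 CPM, a mean of 75.2 ± 4.58 (SD, n = 3), so that the groups did not overlap. The same held for the other 5 genes in control glucose, where 9.59% of all genes were lower in every siGlut1 library, and in high glucose, where 21.9% were. In high glucose the non-silencing libraries held 151 and 156 CPM and the siGlut1 libraries 105, 101 and 95.8 CPM. Again no siGlut1 library reached the lowest non-silencing one. The level that remained was 52.4% in control glucose and 65.7% in high glucose (log2 fold changes -0.93 ± 0.09 and -0.61 ± 0.10, SE).

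PHLDA2 was the most abundant of the 6 per kilobase of gene length in the non-silencing libraries in control glucose. Its libraries with non-silencing siRNA in control glucose held 23.9, 19.7 and 23.7 CPM, and those with siGlut1 held 10.7, 10.8 and 9.96 CPM. In high glucose the non-silencing pair differed widely, with 12.04 CPM in replicate 1 and 20.5 CPM in replicate 3. The siGlut1 libraries in high glucose held 6.29, 8.16 and 7.29 CPM, all under the lower of that pair. The level that remained was 46.8% in control and 44.6% in high glucose (log2 fold changes -1.10 ± 0.17 and -1.17 ± 0.19, SE). Without replicate 3 of the non-silencing libraries in high glucose the second value was -0.73, and without replicate 1 it was -1.50.

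ABAT was lowly expressed. With non-silencing siRNA in control glucose it was measured at 5.52, 6.58 and 4.48 CPM, and with siGlut1 at 3.18, 2.68 and 1.83 CPM. In high glucose the values were 6.17 and 4.50 CPM with non-silencing siRNA and 2.13, 2.07 and 1.66 CPM with siGlut1. Within each group replicate 3 was the lowest library. The level that remained was 46.6% in control and 36.4% in high glucose (log2 fold changes -1.10 ± 0.22 and -1.46 ± 0.25, SE), the second of these the lowest share among the 6 genes in high glucose.

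MYO5B had the lowest mean level of the 6 over the 11 libraries, 3.12 CPM, followed by ABAT at 3.71 CPM. Its non-silencing libraries held 4.11, 3.59 and 5.16 CPM in control glucose and 3.46 and 4.27 CPM in high glucose. With siGlut1 it held 2.16, 2.55 and 2.09 CPM in control glucose and 2.08, 2.72 and 2.17 CPM in high glucose. The siGlut1 libraries of both media thus covered nearly the same range. The level that remained was 52.9% in control and 60.2% in high glucose (log2 fold changes -0.92 ± 0.18 and -0.73 ± 0.20, SE).

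SELENBP1 with non-silencing siRNA was at 9.27, 10.4 and 8.14 CPM in control glucose and at 10.6 and 9.80 CPM in high glucose. With siGlut1 it was at 6.07, 6.02 and 5.52 CPM in control glucose and at 5.38, 3.65 and 4.23 CPM in high glucose. All 3 siGlut1 libraries in high glucose were below all 3 in control glucose, as for 11.7% of all genes. The level that remained was 63.5% in control and 43.2% in high glucose (log2 fold changes -0.65 ± 0.15 and -1.21 ± 0.16, SE), and the first of these was the smallest difference among the 6 genes in control glucose.

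In C4orf49, replicate 3 stood apart from its companions in control glucose. With non-silencing siRNA it was at 12.9, 12.8 and 19.9 CPM in control glucose and at 15.1 and 20.5 CPM in high glucose. With siGlut1 it was at 5.91, 6.27 and 9.91 CPM in control glucose and at 8.71, 7.81 and 8.99 CPM in high glucose. Replicate 3 was the highest library of each group. In control glucose replicate 3 exceeded the mean of its 2 companions by 0.63 on the log2 scale with non-silencing siRNA and by 0.70 with siGlut1. The level that remained was 48.2% in control and 47.8% in high glucose (log2 fold changes -1.05 ± 0.22 and -1.07 ± 0.24, SE). Without non-silencing replicate 3 the control value was -0.81, and without siGlut1 replicate 3 it was -1.32.

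**Figure D2:**
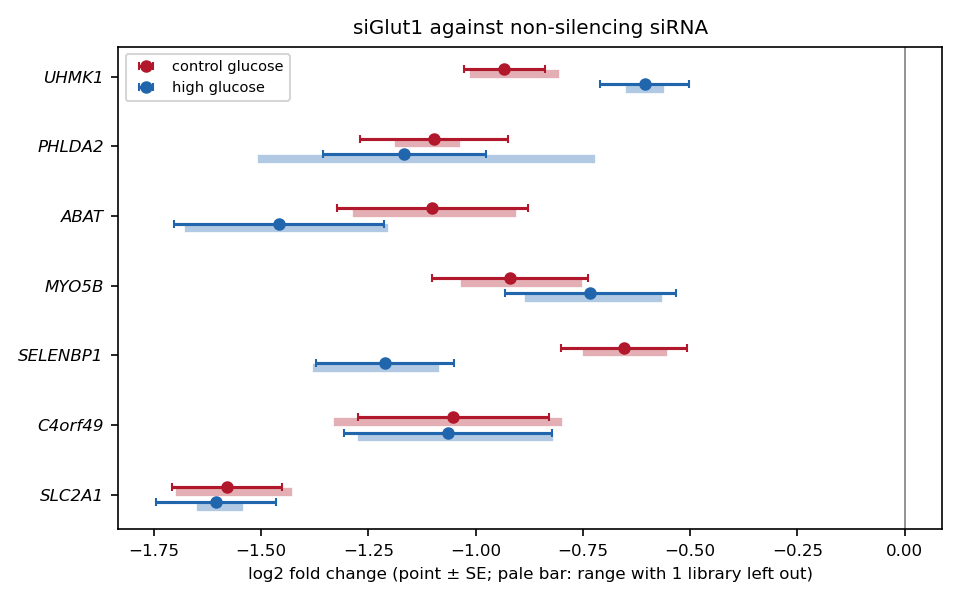
Log2 fold change of siGlut1 against non-silencing siRNA (horizontal axis) for the 6 genes and SLC2A1 in control (red) and high glucose (blue). Points carry the SE, and pale bars span the values with each of the 11 libraries left out in turn. All bars lie below 0, which for the 6 genes follows from their choice. The widest is that of PHLDA2 in high glucose, from -1.50 to -0.73.

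In edgeR's quasi-likelihood fit over 14334 genes, 6 of 6 passed an adjusted p of 0.05 as lower with siGlut1 in control glucose, where 1.26% of all tested genes did, and 5 of 6 in high glucose, where 1.65% did. MYO5B did not pass in high glucose. As these values chose the genes, nothing is read from the counts, which moved with the libraries and settings used. All 6 siGlut1 libraries were below all 5 non-silencing libraries for each of the 6 genes, as for 3.85% of all genes.

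By size, among genes called lower with a mean of at least 2 CPM, SLC2A1 came first in both media and ABAT second. In control glucose, of 171 such genes, PHLDA2 was in place 3, C4orf49 in place 4, UHMK1 in place 6, MYO5B in place 7 and SELENBP1 in place 25. In high glucose, of 226, SELENBP1 was in place 5, PHLDA2 in place 8, C4orf49 in place 11 and UHMK1 in place 55. The median log2 fold change of the called genes was -0.46 in control and -0.47 in high glucose. Not every one of the 6 was therefore among the very largest falls in both media.

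Levels per kilobase of the listed gene length place the genes in another order than CPM. In control glucose with non-silencing siRNA the group means were 24.4 CPM per kilobase for PHLDA2, 16.6 for UHMK1, 11.3 for C4orf49, 5.43 for SELENBP1, 0.932 for ABAT and 0.451 for MYO5B, with SLC2A1 at 6.51. With siGlut1 in high glucose UHMK1 came first at 11.6, followed by PHLDA2 at 7.87, C4orf49 at 6.35, SELENBP1 at 2.59, ABAT at 0.329 and MYO5B at 0.244. PHLDA2 and UHMK1 thus changed places, and in high glucose with non-silencing siRNA both stood at 17.7 CPM per kilobase. The deposited RPKM values of the authors were, for instance, 13.8 to 18.6 for UHMK1 and 0.352 to 0.527 for MYO5B in the non-silencing libraries in control glucose.

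The spread between replicates differed among the 6. The biological coefficient of variation, the relative spread beyond counting noise that edgeR estimates, was 0.0889 for UHMK1, below the median of 0.111 over all genes. It was 0.128 for SELENBP1, 0.151 for PHLDA2, 0.154 for MYO5B, 0.188 for ABAT and 0.191 for C4orf49, and 0.114 for SLC2A1. Of the 6, UHMK1 is thus the gene whose values are most precise, and it has the most counts.

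High glucose is a contrast that the choice of genes did not use, although it draws on the same libraries. Averaged over both siRNAs, 59 of 14334 genes passed (0.412%), and none of the 6 did. UHMK1 was higher in high glucose by 0.26 ± 0.07 on the log2 scale (SE; 95% interval 0.11 to 0.41; edgeR quasi-likelihood test, adjusted p = 0.128). PHLDA2 had a log2 fold change of -0.50 ± 0.13 (95% interval -0.78 to -0.22; adjusted p = 0.123 in the same edgeR fit). The 4 others had adjusted p-values of 0.523 for ABAT, 0.845 for MYO5B, 0.558 for SELENBP1 and 0.528 for C4orf49 in edgeR. Their log2 fold changes were -0.23, -0.06, -0.14 and 0.22, with intervals that all include 0.

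The calls for UHMK1 and PHLDA2 in that average turned on the libraries and the tool. Without replicate 3 of the non-silencing libraries in control glucose, the UHMK1 value was 0.32 with an adjusted p of 0.0175 in edgeR. Without both control libraries numbered 3 it was 0.34 with an adjusted p of 0.004, and PHLDA2 then had -0.50 with an adjusted p of 0.0367. That fit called 2583 genes. With DESeq2, which called 540 genes, the adjusted p was 0.0241 for UHMK1 and 0.012 for PHLDA2. Of the 19 alternatives that gave this average, UHMK1 passed in 4 and PHLDA2 in 3. Both control libraries numbered 3 stood above their companions for UHMK1, by 0.33 with non-silencing siRNA and 0.14 with siGlut1 on the log2 scale.

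Within the siGlut1 libraries, UHMK1 was 1.34-fold higher in high than in control glucose, a log2 fold change of 0.42 ± 0.09 (SE; 95% interval 0.22 to 0.63). The edgeR adjusted p was 0.138, in a comparison where 2 genes of 14334 passed (0.014%). It was 0.0414 without non-silencing control replicate 3. With DESeq2 it was 0.00508, in a fit that called 432 genes. UHMK1 passed in 3 of 20 alternatives. The 3 UHMK1 libraries in high glucose lay above the 3 in control glucose, as did those of 10.8% of all genes. PHLDA2 (-0.53 ± 0.17, SE) and SELENBP1 (-0.42 ± 0.15, SE) lay below without overlap, as did 11.7% of all genes, with edgeR adjusted p-values of 0.217 and 0.239. ABAT (-0.40), MYO5B (0.03) and C4orf49 (0.21) overlapped between media.

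With non-silencing siRNA, no gene passed for glucose in edgeR (0%; 774 of 14334 had an unadjusted p under 0.05, and DESeq2 called 33). The 6 values ran from -0.46 ± 0.19 (SE) for PHLDA2 to 0.23 ± 0.24 for C4orf49, with UHMK1 at 0.10 ± 0.10 and SELENBP1 at 0.14 ± 0.16. For each of the 6 genes the libraries of the media overlapped.

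**Figure D3:**
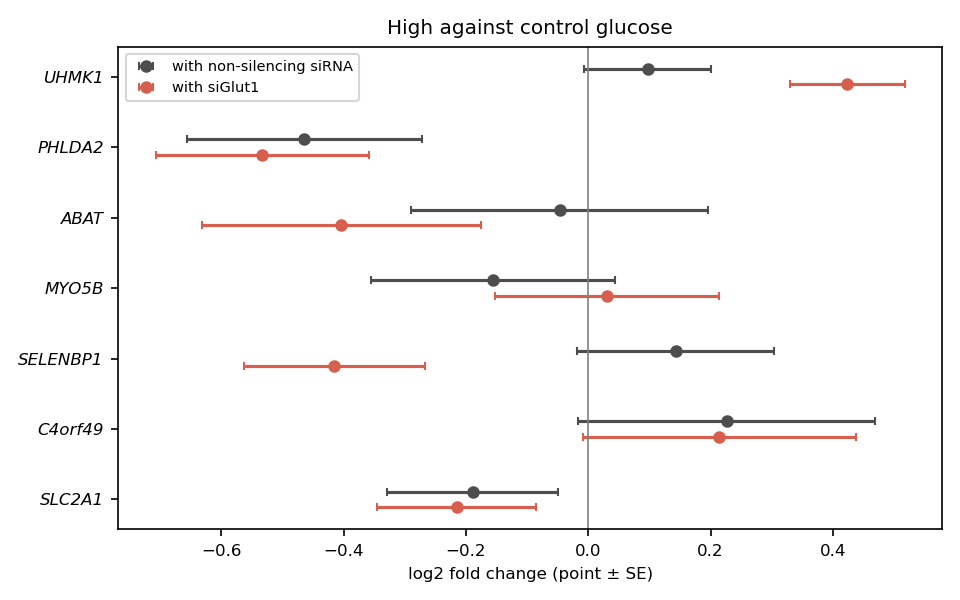
Log2 fold change of high against control glucose (horizontal axis, point ± SE) for the 6 genes and SLC2A1, with non-silencing siRNA (dark) and with siGlut1 (red). SELENBP1 at -0.42, ABAT at -0.40 and UHMK1 at 0.42 with siGlut1 stand farther from their values with non-silencing siRNA, 0.14, -0.05 and 0.10, than the other genes do.

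The difference between the siGlut1 effects of the media was fitted as an interaction. It is built from the siGlut1 differences by which the genes were chosen, so their values are a description and not a test. No gene passed in edgeR (0%; 394 of 14334, or 2.75%, had an unadjusted p under 0.05, and DESeq2 called 0). For UHMK1 the siGlut1 difference was smaller in high glucose, by 0.33 ± 0.14 on the log2 scale (SE; 95% interval 0.02 to 0.63; edgeR adjusted p = 0.999). For SELENBP1 it was larger in high glucose, with an interaction of -0.56 ± 0.22 (95% interval -1.04 to -0.08; adjusted p = 0.999 in the same edgeR fit). ABAT had -0.36 (95% interval -1.08 to 0.37) and MYO5B 0.19 (-0.41 to 0.78). PHLDA2 had -0.07 (-0.63 to 0.49), C4orf49 -0.01 (-0.74 to 0.71) and SLC2A1 -0.03 (-0.44 to 0.39). An interval that includes 0 does not show equal effects in both media. For the chosen genes, an interval without 0 does not show unequal effects either.

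Compared with each other over the 11 libraries, the genes followed several courses. Likeness was measured as the root mean square difference of log2 CPM after centring each gene on its mean, so that 0 is an identical course. All pairs share libraries, and the rule had already made all 6 low with siGlut1. ABAT was closest to SLC2A1 (0.248), and UHMK1 was closest to MYO5B (0.227) and then to C4orf49 (0.248). The largest distance was between ABAT and C4orf49 (0.559). Their control replicates numbered 3 departed in opposite directions, by -0.43 and -0.67 for ABAT against 0.63 and 0.70 for C4orf49 (non-silencing siRNA, then siGlut1). Smaller departures with the same sign in both control groups were seen in SELENBP1 (-0.27 and -0.13), SLC2A1 (-0.15 and -0.49) and UHMK1 (0.33 and 0.14). The part of these departures in the distances was not tested.

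The closest genes were then picked by this distance among 11194 genes with a mean of at least 2 CPM. A distance below the median follows from that search, and the medians are given for scale alone. SH3BGRL2, a small thioredoxin-fold protein, was closest to UHMK1 at 0.0885, where the median gene was at 0.445. It held 40.8 to 50.2 CPM in the non-silencing and 23.4 to 33.4 CPM in the siGlut1 libraries. TMX1, a disulfide-handling protein of the endoplasmic reticulum, came next at 0.141. GSTM4, a glutathione transferase, and ASNS, asparagine synthetase, were closest to PHLDA2 at 0.217 and 0.292, against a median of 0.676. SLC2A1 was the gene closest to ABAT among all candidates, followed by ICAM1, a leukocyte adhesion molecule, at 0.255, against a median of 0.709.

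LONRF1, a RING-domain protein, and RPL17, a protein of the large ribosomal subunit, were closest to MYO5B at 0.183 and 0.192, against a median of 0.468. FAHD2B and RASSF4 were closest to SELENBP1 at 0.157 and 0.173, against a median of 0.529. ENPP4, a surface nucleotide hydrolase, and KRT15, a keratin, were closest to C4orf49 at 0.226 and 0.240, against a median of 0.599. In ENPP4, as in C4orf49, the control replicate numbered 3 was the highest: it held 5.24, 6.47 and 13.5 CPM with non-silencing siRNA. GSTM4, FAHD2B and RPL17 have close relatives or pseudogenes, and no source used here says how shared reads were counted.

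Related genes were read from 6 lists of 112 genes in all, of which 96 were tested. The lists were drawn up for the known partners and families of the 6, but with earlier results of these data known. The shares called are therefore given as a description. With siGlut1 in control glucose 2 were called higher and 4 lower, or 6.25%, where 2.96% of all genes were called in either direction. In high glucose 1 was called higher and 5 lower, again 6.25%, against 4.11% of all genes. The median log2 fold change of the 96 was -0.05 in control and -0.07 in high glucose, while that of all genes was -0.01 and 0. The control count of 6 fell to 1 without siGlut1 control replicate 2, and to 2 or 3 without any 1 of 8 other libraries. Those are non-silencing control replicate 1, both non-silencing libraries in high glucose, siGlut1 control replicates 1 and 3 and all 3 siGlut1 libraries in high glucose. The high-glucose count was 0 without either non-silencing library in high glucose or siGlut1 replicate 2 or 3 there. It was 2 without replicate 1 of non-silencing control, siGlut1 control or siGlut1 high glucose, and 10 without non-silencing control replicate 3. No related gene was called for glucose averaged over siRNA, where 0.412% of all genes were.

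The partners of UHMK1 were 14 genes, and none passed in either medium, with medians of -0.09 and -0.08. SF3B1, a core splicing factor, had -0.09 ± 0.06 and -0.10 ± 0.06 (SE) in control and high glucose, and PAM, a peptide-amidating enzyme, -0.10 ± 0.11 and -0.14 ± 0.12. The kinase substrate CDKN1B had the largest difference of the list, -0.39 in control and -0.43 in high glucose.

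Of the relatives and imprinted neighbours of PHLDA2, 10 of 14 were tested and none passed, with medians of 0.07 and 0.06. The family members PHLDA1 (0.12 ± 0.10 and 0.20 ± 0.11, SE) and PHLDA3 (0.12 ± 0.12 and 0.03 ± 0.13) had small positive values. CD81, a membrane tetraspanin, had 0.05 and -0.01, and NAP1L4, a histone chaperone 15010 bases from PHLDA2, had -0.02 and -0.03. SLC22A18, the imprinted neighbour 3027 bases on the other side of PHLDA2, had -0.84 ± 0.46 and -1.57 ± 0.54 (edgeR adjusted p = 0.386 and 0.128), at a mean of 0.413 CPM.

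Of 20 genes for making, carrying and breaking down GABA, 14 were tested. The genes of GABA synthesis, GAD1 and GAD2, were too low to test. SLC6A6, the taurine carrier, fell from 79.9 ± 8.18 to 50.9 ± 5.71 CPM in control glucose (SD, n = 3 each) and from 98.9 ± 3.65 (n = 2) to 65.6 ± 6.35 CPM (n = 3) in high glucose. Its log2 fold changes were -0.65 ± 0.11 and -0.59 ± 0.12 (SE; edgeR adjusted p = 0.0111 and 0.0209). The control call for SLC6A6 held in 11 of 11 fits with 1 library left out. The high-glucose call was lost in 4, without either non-silencing library in high glucose or without siGlut1 replicate 2 or 3 there (adjusted p up to 0.171).

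SLC6A8, the creatine carrier, rose from 58.6 to 92.7 CPM in control and from 48.9 to 82.2 CPM in high glucose (log2 fold changes 0.66 ± 0.15 and 0.75 ± 0.17, SE; edgeR adjusted p = 0.0372 and 0.033). With 1 library left out the control call held in 3 of 11 fits, those without non-silencing control replicate 2 or 3 or siGlut1 control replicate 3. The high-glucose call held in 4 of 11, those without non-silencing control replicate 2 or 3 or siGlut1 control replicate 2 or 3. ALDH9A1, an enzyme that can form GABA from putrescine products, fell in high glucose (-0.27 ± 0.07, SE; edgeR adjusted p = 0.0499). It held that call in 2 of 11 such fits, those without non-silencing control replicate 2 or 3.

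Of the class V myosins and recycling-endosome partners, 19 of 22 were tested. The paralogs of MYO5B were not called: MYO5A had -0.07 ± 0.07 and 0.23 ± 0.08 (SE), and MYO5C -0.39 ± 0.23 and -0.28 ± 0.25. EXOC6, an exocyst subunit, fell in both media (-0.34 ± 0.08 and -0.37 ± 0.09, SE; edgeR adjusted p = 0.0432 and 0.0381). RAB11FIP5, an adaptor of RAB11, rose in control glucose (0.32 ± 0.08, SE; edgeR adjusted p = 0.0485). With 1 library left out, EXOC6 held its control call in 1 of 11 fits, that without siGlut1 replicate 1 in high glucose. It held its high-glucose call in 4 of 11, those without that library, non-silencing control replicate 2 or 3, or siGlut1 control replicate 3. RAB11FIP5 held its call in 1 of 11 fits, that without non-silencing control replicate 2.

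Of selenoproteins and enzymes of sulfide and methanethiol oxidation, 20 of 22 were tested. TXNRD1, cytosolic thioredoxin reductase, fell from 807 to 612 CPM in control and from 920 to 672 CPM in high glucose (-0.40 ± 0.09 and -0.45 ± 0.10, SE; edgeR adjusted p = 0.0375 and 0.0294). SQRDL, sulfide quinone oxidoreductase, fell in high glucose (-0.56 ± 0.13, SE; edgeR adjusted p = 0.0348). With 1 library left out, TXNRD1 held its control call in 3 of 11 fits, those without non-silencing control replicate 2, siGlut1 control replicate 1 or siGlut1 replicate 2 in high glucose. Its high-glucose call was lost without any 1 of the 5 high-glucose libraries. SQRDL held its call in 4 of 11 fits, those without replicate 2 or 3 of either control-glucose group.

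Of the mitochondrial transport and hypoxia genes linked to C4orf49, 19 of 20 were tested. KIF5B, the kinesin heavy chain that moves mitochondria along microtubules, fell from 313 ± 33.4 to 233 ± 8.22 CPM in control glucose (SD, n = 3 each; log2 fold change -0.43 ± 0.08, SE; edgeR adjusted p = 0.0156). That call was lost without siGlut1 control replicate 1 (0.0517) or 2 (0.0594). In high glucose KIF5B had -0.26 ± 0.09, and no gene of the list passed there.

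**Figure D4:**
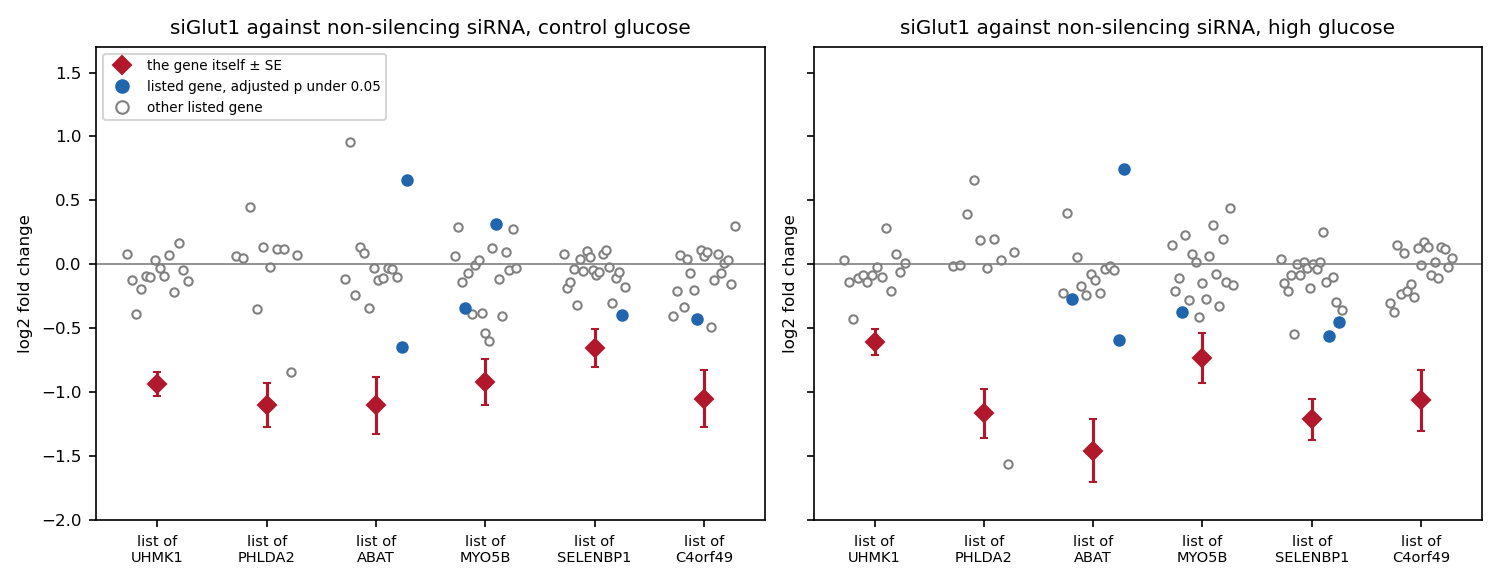
Log2 fold change of siGlut1 against non-silencing siRNA (vertical axis) in control (left) and high glucose (right) for the tested genes of the 6 lists (circles, filled where the adjusted p is under 0.05) beside the gene each list was built around (diamond ± SE). Apart from SLC22A18 in the list of PHLDA2, at -1.57 in high glucose, the tested genes of each list lie above their own diamond and its error bar. The diamonds are genes chosen for their falls, so nothing is read from their lower place.

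The nearest tested gene on each side of the 6 was also read. Of these 12 neighbours, 11 were not called in either medium. Of all tested genes, 2.96% were called in control and 4.11% in high glucose. RFX5, a transcription factor gene 17011 bases from SELENBP1, had -0.31 ± 0.06 in control and -0.32 ± 0.07 in high glucose (SE; edgeR adjusted p = 0.0282 and 0.0344), smaller than the SELENBP1 values. RFX5 held its control call in 5 of 11 fits with 1 library left out. That call was lost without non-silencing control replicate 1 or 2, any siGlut1 control library or siGlut1 replicate 3 in high glucose. Its high-glucose call was lost in 7 of 11, without any high-glucose library or replicate 1 of either control-glucose group.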

How the data were processed

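RNA was sequenced from 4 groups of HBMEC, and libraries were described with both TruSeq stranded mRNA and SMARTER kits, per the labels' protocols. Which library was made with which kit is not stated there. The deposited values are raw gene counts and RPKM, per the file headers, with a gene length used by the authors for RPKM. The build hg19 and DESeq2 are named in the submitters' processing notes. Neither the aligner nor the counting tool, the use of strand or the annotation is given there.

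Of 12 deposited columns 11 were used, and 101 entries whose symbol is listed more than once were left out, which left 23297. The analysis ran in edgeR 4.0.16 under R 4.3.3: filterByExpr with the groups kept 14334 genes, TMM factors were 0.975 to 1.03, and 1 quasi-likelihood model with a mean per group and no block was fitted to all libraries (common dispersion 0.0161, 7 residual degrees of freedom). P-values are two-sided, with Benjamini-Hochberg adjustment over all tested genes and a threshold of 0.05. SE is the log2 fold change over the square root of F. CPM was computed on TMM library sizes, and a prior count of 2 was added before taking log2. Tested on simulated data for siGlut1 in control glucose (14148 genes, 200 changed 2-fold), the fit recovered 192 with 9 false calls. The simulated counts were independent between libraries, with a dispersion set by expression level alone, and only genes of at least 2 CPM were changed. They held no shifts shared by replicates and no spread particular to a gene, so this recovery cannot be carried over to the real libraries.

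The 6 genes, their lists of related genes and the tests were chosen with earlier results of these data known. Besides the 6 and SLC2A1, the rule named the 2 genes nearest each of the 6 in course, the paralogs, and per list up to 4 genes past the threshold or, where none passed, the 2 with most counts. CDKN1B, SLC22A18 and RFX5 fall outside that rule and were chosen after their values were seen. Alternatives were DESeq2 1.42.0, DESeq2 size factors, no filter on low counts, at least 1 CPM in 6 libraries, only the groups compared, all 12 columns, a replicate block, removal of a gene length trend, and libraries left out. Counting errors cover counting alone.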

Additional observations from a re-analysis of the deposited data

How the results depend on the processing

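The siGlut1 log2 fold changes of the 6 genes and SLC2A1 stayed negative in all 20 alternatives and both media. The 6 were chosen for these falls, and their siRNA groups did not overlap, so the stable sign is no test of them. Counts of genes past the threshold moved more. With DESeq2 they were 1050 for siGlut1 in control glucose (424 in the edgeR fit), 1318 in high glucose (589), 540 for glucose averaged over siRNA (59), 33 with non-silencing siRNA (0) and 432 with siGlut1 (2), with 14 and 10 related genes (6 and 6). With only the groups compared they were 70 and 1149, with 0 and 13 related genes, and 0 for glucose with siGlut1. With all 12 columns, which count a mean as a library, they were 824, 1807, 427, 11 and 36, with 12 and 16 related genes. Without both control libraries numbered 3 they were 247, 1674, 2583, 48 and 735, with 4 and 18 related genes. No alternative called an interaction. With 1 library left out in turn they ranged from 131 to 343, from 6 to 1077, from 0 to 836, from 0 to 2 and from 0 to 17, with 1 to 7 and 0 to 10 related genes.

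Values near 0 changed sign. For glucose with non-silencing siRNA, leaving out 1 library gave ABAT -0.29 to 0.16, MYO5B -0.31 to 0.003 and C4orf49 -0.007 to 0.47. For glucose with siGlut1, MYO5B gave -0.094 to 0.136, and averaged over siRNA -0.14 to 0.016. For the interaction, PHLDA2 gave -0.40 to 0.36, C4orf49 -0.26 to 0.26 and SLC2A1 -0.17 to 0.08. Without both control libraries numbered 3, MYO5B was -0.019 for glucose with siGlut1 and -0.017 for the interaction, and C4orf49 0.021 for the interaction. With a gene length trend removed, MYO5B was -0.18 for glucose with siGlut1 and -0.021 for the interaction, where PHLDA2 was 0.05 and C4orf49 0.079. The cause was not tested. Averaged over siRNA, C4orf49 passed the threshold for glucose only without both control libraries numbered 3 (0.48, edgeR adjusted p = 0.0106).

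The labels give replicate numbers no meaning, and not every same-numbered pair correlated above 0.1, so the numbers were not taken to pair the samples. Deviations from the group means correlated from -0.252 to 0.536 over 15 pairs with the same number (median 0.12) and from -0.436 to 0.264 over 30 with different numbers (median -0.082). All 6 pairs numbered 3 were positive, from 0.085 to 0.536, but not every library correlated best with its own number. With a replicate block the counts were 560, 597, 59, 0 and 3, with 8 and 5 related genes. ABAT was then 0.024 for glucose with non-silencing siRNA and C4orf49 0.09 for the interaction. The SE of the siGlut1 difference in control glucose went from 0.223 to 0.148 for ABAT and from 0.223 to 0.13 for C4orf49, and ALDH9A1 and RFX5 lost their calls in high glucose. Depth limits ABAT and MYO5B most.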
